A study of Mus musculus with 3 samples.

Results

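Sebaceous gland cells of the mouse anorectal junction were examined as the cells that the authors had placed in cluster 13 of their clustering, which their annotation files under keratinocytes. The cluster held 1462 of the 37080 deposited cells, and 1462 of the 20321 cells in the 10 keratinocyte clusters (1, 3, 4, 5, 8, 9, 12, 13, 17 and 26). Of these, 218 came from day 0, 1138 from day 7 and 106 from day 42. Each day is 1 library of single cells, made from pooled tissue (distal colon plus anus) of 5 mice; the strain was C57Bl/6 and the mice were bought at 6 weeks of age. Day 0 mice were untreated and carry the histological label Normal. Day 7 and day 42 mice had drunk 3% dextran sulfate sodium (DSS), a sulfated polysaccharide that injures the colon lining, for 6 days from day 0, and are labelled Severe colitis and Recovered. With 1 pooled library per day there are no replicates, so no test between days was possible: intervals given here cover counting error only, and a gene or list is called higher or lower by a fixed fold.

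Sebaceous glands are appendages of hair-bearing skin, and the perianal skin and the anal canal border are rich in them. A basal cell at the gland's edge leaves the cell cycle, moves inward while it fills with lipid droplets, and finally bursts, releasing sebum, a mixture that includes wax esters, triglycerides and sterol esters. The nuclear receptor PPARγ is the best-known driver of this maturation. Sebum coats the hair and skin surface and carries antimicrobial lipids and proteins.

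The libraries held 89241138 UMIs on day 0, 151886649 on day 7 and 72258639 on day 42, where a UMI is 1 counted RNA molecule. Cluster 13 accounted for 2367600, 14934123 and 539345 of them. Its cells had a median of 9114.5 UMIs on day 0, 11071.5 on day 7 and 4299.5 on day 42, so the day 42 cells were the shallowest and their number the smallest. The median share of UMIs from mitochondrial genes was 11%, 9.15% and 11.3%. A barcode occurred in more than 1 library for 139 barcodes, 20 of them carried by cells of the cluster. Levels below are in CPM, the usual depth-scaled count: the summed UMIs of a gene over all UMIs of the same cells. A log2 ratio compares 2 levels after 10 CPM is added to each. A gene was compared where it reached 20 CPM in either group, and it was called higher or lower where the 2 levels, with the 10 CPM, differed at least 2-fold. "Other keratinocytes" are the remaining 9 keratinocyte clusters summed per library.

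A few cells of the cluster went against its label. Cells with 10 or more UMIs of Igkc, the immunoglobulin kappa constant region of plasma cells, numbered 6 on day 0, 0 on day 7 and 6 on day 42. Immunoglobulin genes made up 42.0% to 63.6% of the UMIs of the day 0 cells and 59.8% to 77.5% of those of the day 42 cells. All 52 UMIs of Mzb1, a plasma cell chaperone, in the cluster on day 0 and all 113 on day 42 were in these cells, which held 4 and 0 UMIs of the 6 sebaceous markers. On the authors' 2-dimensional map they lay at 12.62 to 12.63 on the first axis, while the other cells of the cluster reached at most 9.22 on day 0 and 8.92 on day 42. They were 2.75% of the cluster's cells on day 0 and 5.66% on day 42, but 2.29% and 13.3% of its UMIs. Without them the median log2 ratio of all genes between day 42 and day 0 went from -0.109 to -0.002, and levels of genes that they lack are higher on day 42 without them. Awat1, Cidea, Apoe, Cebpb, Krt14, Lcn2, Map1lc3a and Retn were lower on day 42 with these cells and higher without them, so their order between these days is not read. Several other day 42 values are also given without these cells. Elsewhere in the data, 1 such cell each was in clusters 2, 7, 17 and 19 and 8 were in the 27-cell cluster 29, whose cells lay between 9.04 and 9.09 on the same axis.

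A second set of cells stood apart on day 7 alone of the 3 libraries. On the map, 164 cells of day 7 formed an arm of the cluster that held 0 cells of day 0 and 0 of day 42. Its limits, below 7 on the first axis and above -2 on the second, were chosen after the map was seen. The arm's cells had a median of 1399.5 UMIs and 744.5 genes, against 13632 UMIs and 3249 genes in the rest of the day 7 cluster. They were 14.4% of its cells and 1.67% of its UMIs. Transcripts of red blood cells, neutrophils and colonocytes were higher there: Hbb-bs stood at 17320 CPM against 96.4 in the rest, S100a8 at 4490 against 411, and the colonocyte gene Lypd8 at 3132 against 98.1. In the other keratinocytes of day 7 with under 2000 UMIs, the same 3 genes stood at 4998, 3587 and 908 CPM. Sebaceous markers were present in the arm at lower levels, with Scd1 at 2245 CPM against 6747 in the rest and 147.5 in those other shallow keratinocytes. Several day 7 values are also given without it. In the bins of cells described further on, leaving the arm out changed no day 7 count of members called for the lipid, basal keratinocyte, cell cycle and lysosome lists.

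The 6 marker genes of the gland are all enzymes of lipid metabolism. Scd1 (stearoyl-CoA desaturase, which adds a double bond to fatty acids; chr19:44394455-44407879, minus strand) stood at 6919 CPM on day 0 (95% interval 6813 to 7026), 6672 on day 7 (6631 to 6714) and 4832 on day 42 (4648 to 5021), or 5570 on day 42 without the Igkc cells. In the other keratinocytes it was at 32.1, 41.5 and 13.6 CPM. Mgll (monoglyceride lipase; chr6:88724412-88828360, plus strand) was at 3516, 4164 and 2340 CPM in the cluster and at 22.5, 23.7 and 20.5 outside it. Both were therefore more than 100-fold above the other keratinocytes on each day. Cers4 (ceramide synthase; chr8:4493026-4531680, plus strand) was at 2619, 3240 and 2010 CPM. Fa2h (fatty acid 2-hydroxylase; chr8:111345135-111393824, minus strand) was at 1262, 1555 and 858 CPM. These are enzymes of ceramide and hydroxylated lipid synthesis. Far2 (fatty acyl-CoA reductase, which makes the alcohol part of wax esters; chr6:148047259-148182758, plus strand) was at 778, 990 and 467 CPM. Elovl3 (elongase of very long chain fatty acids; chr19:46131897-46135694, plus strand) was at 650, 862 and 443 CPM. Positions are from GENCODE M21 on GRCm38.

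No other keratinocyte cluster with at least 50 cells in a library came near these levels. The highest value of Scd1 outside the cluster was 57.7 CPM on day 0 (cluster 17), 114.5 on day 7 (cluster 12) and 68.2 on day 42 (cluster 8). For Fa2h the highest was 18.8 CPM, in cluster 12 on day 7. The 6 markers summed to 15740, 17480 and 10950 CPM in cluster 13 and to 68.4, 91.2 and 39.7 CPM in the other keratinocytes. The label sebaceous therefore matches its markers here; since the clusters come from the same cells and counts, the difference is a description and no test.

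**Figure D1:**
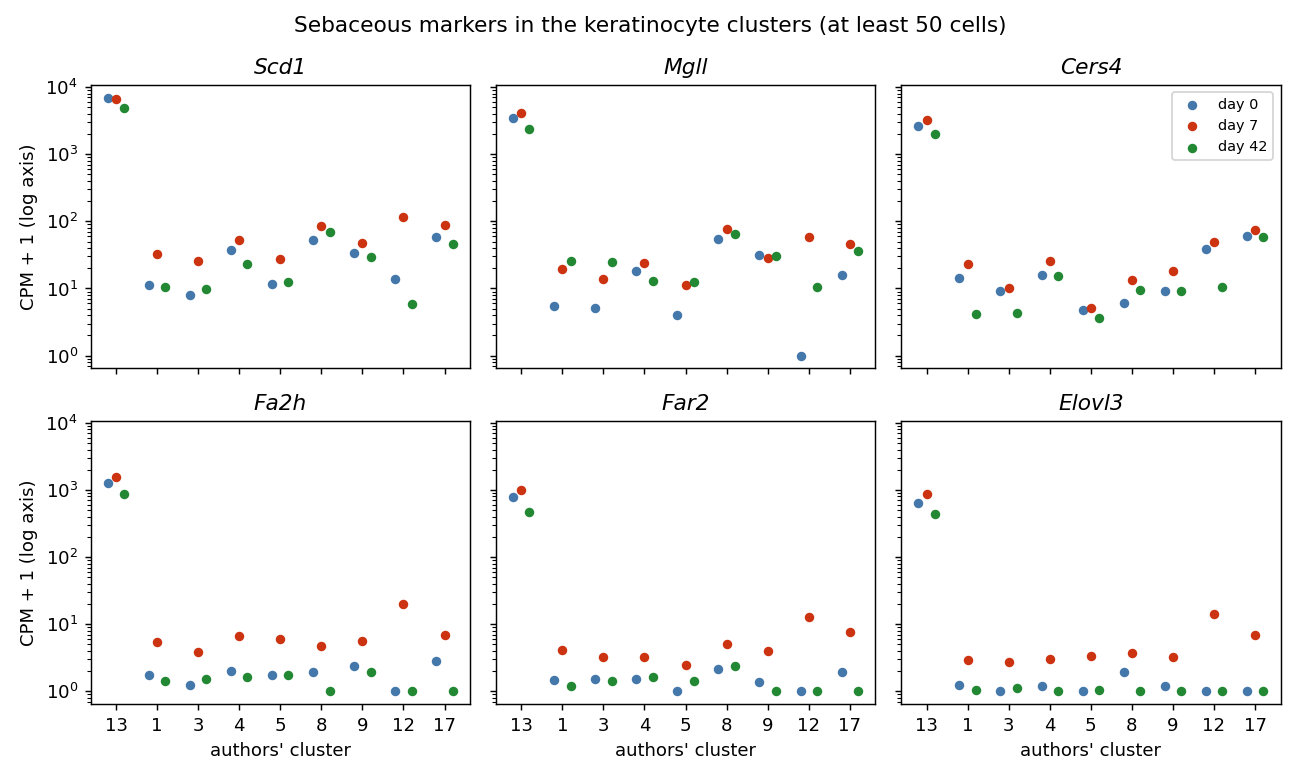
Level of each of the 6 sebaceous markers (CPM plus 1, log axis) in each keratinocyte cluster with at least 50 cells, with 1 point per day. Cluster 13 stands above every other plotted cluster in each panel, with Scd1 between 4832 and 6919 CPM against at most 114.5 elsewhere.

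The proximal promoter of Mgll is shown because Mgll is a marker whose level separates the cluster at every day and because its promoter carried the one E box found among the promoters that could be read. The 250 bases before the first of its 2 RefSeq starts are chr6:88724162-88724411 of GRCm38.p6, plus strand, written 5′ to 3′ with the E box CACGTG in capitals.
Mgll, start 1: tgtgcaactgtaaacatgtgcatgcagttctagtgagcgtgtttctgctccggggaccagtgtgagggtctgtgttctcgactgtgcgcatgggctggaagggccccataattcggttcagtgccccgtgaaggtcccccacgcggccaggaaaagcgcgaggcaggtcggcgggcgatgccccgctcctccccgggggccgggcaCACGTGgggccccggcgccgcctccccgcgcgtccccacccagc
The E box starts at -44 relative to the start site. Six-letter E boxes of this form are read by basic helix-loop-helix factors such as SREBP, MYC and USF. Of 32851 promoter windows of the same length, 6.02% held it. The GC box GGGCGG, read on either strand, lay at -178 for Cers4, at -126 and -56 for Far2 and at -121 for the second start of Mgll, and 32.7% of all windows held it. The sterol response element TCACNCCAC (1.05% of windows), the CCAAT box (33.8%), the TATA box TATAAA (12.4%) and the PPAR core site AGGTCA (14.0%) had no match on either strand in these 4 windows, which says only that those letters are not there. Promoters of Scd1, Fa2h and Elovl3 were not analysed here.

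Besides the 6 markers, 9 genes completed the 15 whose lowest log2 ratio to the other keratinocytes over the 3 days was highest. Among them were Scd3, Adh1, Cidea, Rarres1, Lhpp, Tmem56, Secisbp2l and Soat1. Scd3, a skin desaturase neighbouring Scd1, was at 1036, 911 and 456 CPM, and its lowest log2 ratio was 5.52. Cidea, a protein of the lipid droplet surface that lets droplets fuse, was at 399, 724 and 363 CPM. Adh1, an alcohol dehydrogenase that acts on retinol, was at 1067, 920 and 929 CPM. Soat1, which esterifies cholesterol, was at 633, 976 and 439 CPM. Scd3, Cidea and Soat1 are thus also genes of lipid handling.

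Compared with the other keratinocytes of the same library, 7.78% of the 6206 genes compared were called higher in cluster 13 on day 0, 8.62% of 6059 on day 7 and 8.55% of 6290 on day 42. In the union of 8 lists of lipid genes, 71 of 100 members compared were called higher on day 0 (median log2 ratio 2.03), 81 of 103 on day 7 (2.17) and 68 of 98 on day 42 (1.84). With the 6 markers taken out these were 65 of 94, 75 of 97 and 62 of 92. Between 5 and 13 were called lower. Cholesterol synthesis was the most complete: 19 of 22 members were higher on day 0, 20 of 22 on day 7 and 18 of 22 on day 42. The exception called lower on each day was Sc5d, the sterol desaturase, at 6.76, 7.50 and 5.56 CPM against 63.6, 41.4 and 53.3 in the other keratinocytes. Fatty acid synthesis and elongation had 11 of 15 members higher on day 0, 13 of 15 on day 7 and 9 of 15 on day 42. Without the marker Elovl3 these were 10 of 14, 12 of 14 and 8 of 14. Fatty acid synthase itself, Fasn, was at 697, 599 and 412 CPM against 38.7, 53.5 and 31.0.

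Other branches of lipid metabolism were higher in part. Among peroxisome genes, whose products shorten very long chain fatty acids and start ether lipid synthesis, 13 of 18 were higher on day 0, 14 of 18 on day 7 and 12 of 16 on day 42. Agps, the ether lipid enzyme, went the other way, at 1.27, 4.15 and 1.85 CPM against 20.8, 32.1 and 29.5 outside. Wax ester and glyceride synthesis had 7 of 10, 8 of 11 and 7 of 10 members higher, or 6 of 9, 7 of 10 and 6 of 9 without the marker Far2. In that list Far1, the second fatty acyl-CoA reductase, was at 51.5, 62.5 and 37.1 CPM against 99.2, 89.1 and 101 outside, so the 2 reductases lay on opposite sides of the other keratinocytes. Lipid droplet and lipolysis genes had 7 of 9, 9 of 11 and 7 of 9 higher, or 6 of 8, 8 of 10 and 6 of 8 without the marker Mgll. Here Plin2, the droplet coat protein, was at 1200, 1022 and 640 CPM, while Plin1, its fat cell relative, had 0, 0.134 and 0 CPM. Ceramide and sphingolipid genes were higher for 3 of 9, 4 of 8 and 3 of 8 members. Without the markers Cers4 and Fa2h they were higher for 1 of 7, 2 of 6 and 1 of 6, and lower for 1, 0 and 2. The median log2 ratios were then -0.292, 0.078 and -0.587, so this list as a whole was not past the fold on any day. Cers3, the ceramide synthase of the epidermal barrier, was at 0, 1.14 and 0 CPM against 20.9, 16.2 and 6.83. Of fatty acid uptake genes 7 of 12, 9 of 13 and 8 of 12 were higher, with Dbi and Acsl1 lower on each day.

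Regulators of the gland were higher in a smaller share. Of 17, 17 and 16 compared, 7 were called higher on each day, among them Pparg, Ppara, Srebf1, Scap, Cebpa and Cebpb each time. Pparg, the gene of PPARγ, was at 77.7, 107.5 and 79.7 CPM against 4.43, 4.19 and 4.29 in the other keratinocytes. Runx1 was called lower on each day. Of the steroid genes, Hsd3b6, a steroid dehydrogenase, was at 31.7, 26.5 and 20.4 CPM against 0, 0.053 and 0. The melanocortin receptor Mc5r, known from sebaceous and other exocrine glands, was at 1.27, 2.28 and 3.71 CPM, below the 20 CPM needed for a comparison.

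Genes of the other keratinocyte programmes were low. Over all genes compared, 9.54% were called lower in the cluster on day 0, 8.75% on day 7 and 15.3% on day 42. All 7 epidermal suprabasal genes compared on day 0, 5 of 5 on day 7 and 3 of 3 on day 42 were called lower, as were all mucosal suprabasal genes compared (8, 7 and 7). In cluster 13 no mucosal gene reached 20 CPM on day 0, while 6 did on day 7 and 4 on day 42. Those of day 0 were thus compared only through the other keratinocytes, where they were high, so their count is a description. Basal keratinocyte genes were lower for 6 of 8 on each day, yet Krt14 remained at 2200, 3013 and 2175 CPM and Krt5 at 425, 605 and 460. Krt79, a keratin of the gland's duct, was at 1268, 1676 and 719 CPM against 656, 283 and 93.6, and together with Sbsn it was called higher on days 7 and 42. In cluster 8 it stood above cluster 13, at 3219, 3112 and 2781 CPM. The 3 hair follicle markers Krt25, Krt71 and Tchh summed to 1.27, 5.56 and 0 CPM, against 562, 147 and 38.3 in the other keratinocytes. Of 5 fat cell markers (Adipoq, Lep, Retn, Cfd and Adrb3), Adipoq and Lep had 0 UMIs on each day, and Cfd had 0 on days 0 and 42. The 5 summed to 102, 313 and 90.9 CPM against 0.885, 1.08 and 0.712 in the other keratinocytes. Most of that sum was Retn (resistin), also made by mouse fat cells, at 98.4, 312 and 89.0 CPM.

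The cluster was not uniform. On each day cells were ordered by the share of their UMIs in the 6 markers and divided into 4 bins of like cell number. That share ran from 0 to 6.65% on day 0, to 7.65% on day 7 and to 6.85% on day 42, and the top bin began at 1.14%, 1.72% and 0.517%. Cells without any UMI of the 6 markers were 10.1% of the cluster on day 0, 1.32% on day 7 and 28.3% on day 42. The Igkc cells supplied 3 of those of day 0 and 6 of those of day 42. The rest were shallower than the cells with marker UMIs, at medians of 5108, 3044 and 3123.5 UMIs against 9774, 11218 and 4497. What part depth has in these shares was not tested. On day 42, 30 cells tied at 0, so the first boundary there follows the order of the cells in the file. Cells of the top bin were also the richest in RNA, with medians of 21482.5, 24561 and 7809 UMIs against 7781, 13350 and 3728 in the bottom bin.

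**Figure D2:**
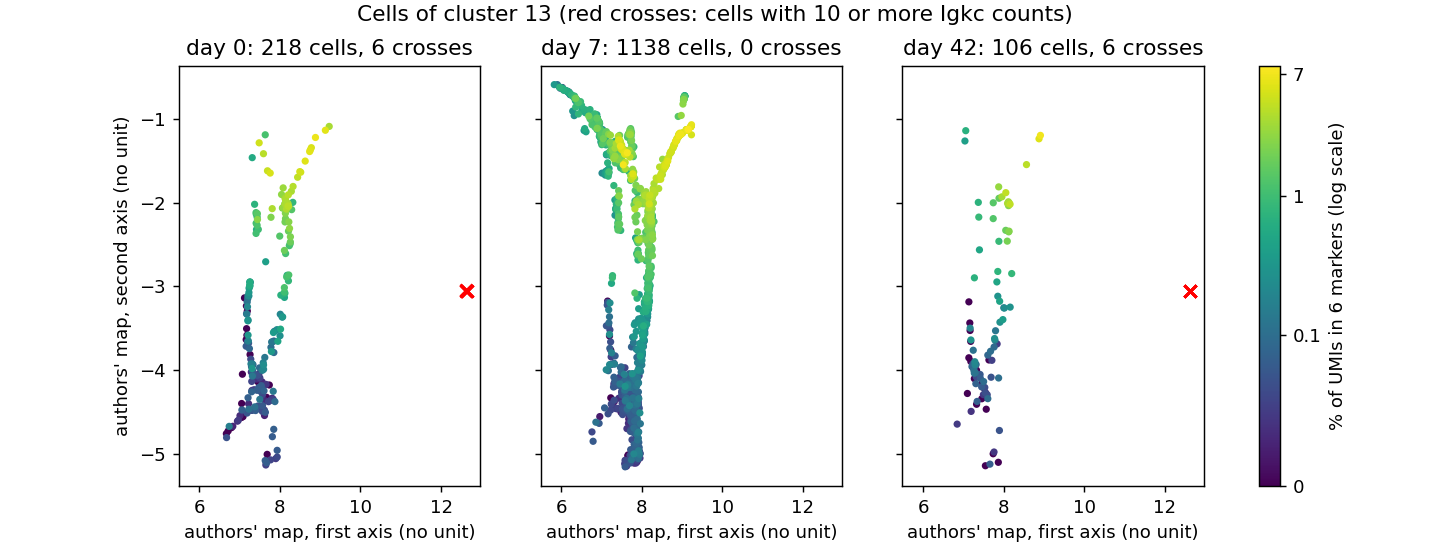
Cells of cluster 13 on the authors' 2-dimensional map (axes in the map's own units), 1 panel per day, coloured by the percent of each cell's UMIs in the 6 sebaceous markers on a log scale. Red crosses mark the 6 cells of day 0 and the 6 of day 42 with 10 or more Igkc UMIs, which lie at 12.62 to 12.63 on the first axis, away from the rest.

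Lipid genes were higher in the upper bins, and basal and cell cycle genes were lower. The 6 markers set the bins and are themselves lipid genes, so they were taken out of the lipid lists counted here. Between the top and bottom bin, 14.6% of all genes compared were higher and 15.8% lower on day 0, 12.7% and 16.4% on day 7, and 29.7% and 15.6% on day 42. The day 42 counts move with the 6 Igkc cells, all in its bottom bin: without them 1303 of 6465 genes were higher and 1807 lower. Of the other lipid genes 73 of 91 were higher on day 0, 76 of 93 on day 7 and 78 of 87 on day 42, or 71 of 91 on day 0 and 68 of 89 on day 42 without the Igkc cells. Cholesterol synthesis was higher for 21 of 21 members on each day (20 of 21 on day 0 without the Igkc cells), and fatty acid synthesis and elongation, without Elovl3, for 13 of 13, 14 of 14 and 12 of 12. Summed cholesterol synthesis genes went from 1188 CPM in the bottom bin to 2098, 8153 and 29100 CPM in the top bin on day 0. On day 42 the same sum went from 485 CPM (872 without the Igkc cells) to 1210, 3625 and 24500 CPM. Basal keratinocyte genes were lower in the top bin for 7 of 8 members on each day. Cell cycle genes were lower for 14 of 16, 17 of 18 and 12 of 14, and summed to 3001, 1374, 720 and 252 CPM from bottom to top on day 7. In the top bin of day 7 only Pcna, Tyms and Hmgb2 of them reached 20 CPM, at 31.6, 77.2 and 57.2 CPM. The others were compared only through the bottom bin, where they were high, so the count is a description. Some members of the lipid and basal lists, such as Awat1 and Itgb4, also passed through 1 bin alone.

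Single genes showed when along this order they were high. Mki67, a marker of dividing cells, was at 153 CPM in the bottom and 3.7 in the top bin on day 0, and at 211 and 9.3 on day 7. Krt5 was at 1124 and 107 CPM on day 0, a log2 ratio of -3.28, whereas Krt14 had a log2 ratio of -0.51 on day 0, -0.30 on day 7 and 0.10 on day 42 between the same bins. Without the Igkc cells Krt14 was at -0.71 on day 0 and -0.88 on day 42, and Krt5 at -3.47 and -4.27. Krt14 thus differed less between the bins than Krt5. Pparg was at 68.3, 99.9, 75.4 and 73.0 CPM from bottom to top on day 0 and at 98.2, 135, 97.7 and 106 on day 7. On day 42 it was at 92.6, 89.6, 76.7 and 65.5 CPM, with 189 CPM in the bottom bin once the Igkc cells were left out. Its top and bottom bins were thus less than 2-fold apart on days 0 and 7 but not on day 42 without those cells. The day 42 bottom bin held 27 cells, 6 of them Igkc cells, and the top bin 26, at median depths of 3728 and 7809 UMIs. These day 42 levels of Pparg therefore rest on few UMIs. Cebpa, a differentiation factor of lipid-storing cells, was higher in the top bin, at 281 against 99.0 CPM on day 0 and 278 against 107 on day 7. Notch1 was at 177 CPM in the bottom and 11.2 in the top bin on day 0, and Myc at 106 and 22.5. Awat1, the wax synthase of the skin, was at 0 in the bottom and 117 CPM in the top bin on day 0, and Elovl4 was at 7.1 and 1550 CPM. Both were therefore near absent from marker-poor cells.

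**Figure D3:**
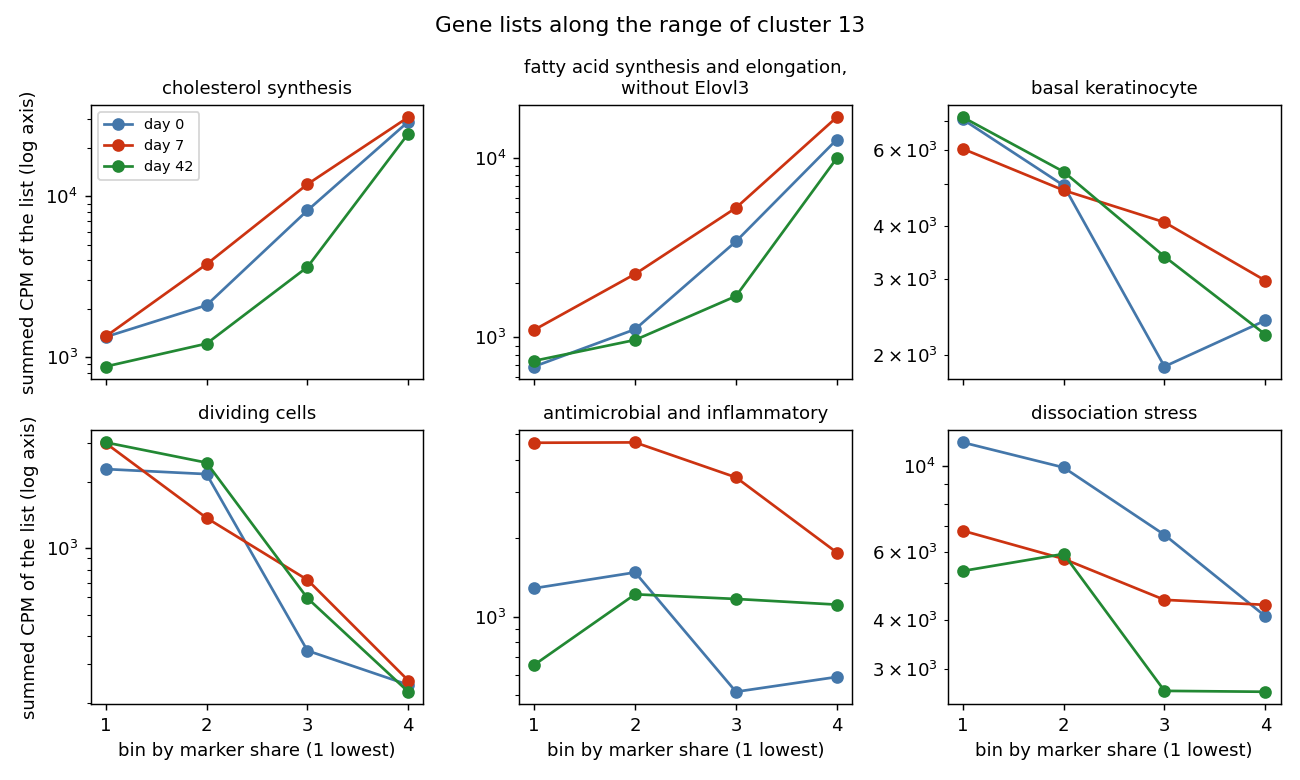
Summed level (CPM, log axis) of 6 gene lists in the 4 bins of cluster 13 ordered by marker share, with 1 line per day, the Igkc cells left out of the bottom bin and the marker Elovl3 out of the fatty acid list. Cholesterol synthesis climbs on each day, from 1332 to 29100 CPM on day 0, while the cell cycle list drops, from 3001 to 252 CPM on day 7.

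Cells without marker UMIs, the Igkc cells left out, numbered 19, 15 and 24. They still had Krt14 at 3500, 3479 and 3672 CPM, and Krt5 at 1104, 1548 and 1133. Some genes that were high in the whole cluster were present in them: Adh1 was at 494, 329 and 361 CPM and Psph, an enzyme of serine synthesis, at 452, 472 and 610. Rarres1, by contrast, was at 10.5, 22 and 12.5 CPM there and at 457, 453 and 352 in the whole cluster.

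The cluster's share of keratinocytes was highest on day 7 and lowest on day 42. It was 6.57% on day 0 (95% exact binomial interval 5.75 to 7.47), 12.6% on day 7 (11.9 to 13.3) and 1.33% on day 42 (1.09 to 1.61). The 3 intervals do not overlap. They cover counting error alone: how dissection, digestion, dead cell removal and the number of glands in each piece of tissue moved the shares was not tested. Without the arm of shallow cells the day 7 share was 10.8%, and without the Igkc cells the shares on days 0 and 42 were 6.39% and 1.26%. The order was the same among all cells, at 1.98%, 7.92% and 0.909%. Among the cells of all 10 keratinocyte clusters, a count by markers gave the same order again: cells with UMIs of at least 5 of the 6 markers, after each was thinned to 1000 UMIs, were 1.22%, 3.58% and 0.216% of keratinocytes, with 34, 468 and 91 keratinocytes of lower depth left out. Of the cells called this way, 40 of 40 on day 0, 306 of 307 on day 7 and 17 of 17 on day 42 lay in cluster 13.

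**Figure D4:**
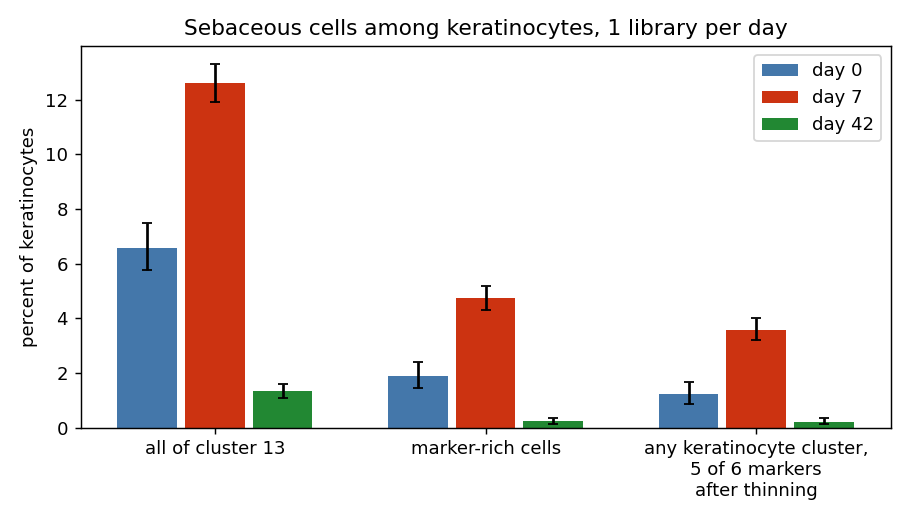
Percent of keratinocytes on each day that belong to cluster 13, to its marker-rich cells (at least 1% of UMIs in the 6 markers), or to any keratinocyte cluster with UMIs of at least 5 of the 6 markers after thinning; bars start at 0 and lines are 95% exact binomial intervals. Day 7 is highest and day 42 lowest by each count, with 12.6% and 1.33% for the whole cluster.

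Cells rich in marker RNA were a minority of the cluster on each day. Those with at least 1% of their UMIs in the 6 markers, a limit set after the data were seen, were 62 of 218 cells on day 0 (28.4%), 427 of 1138 on day 7 (37.5%) and 18 of 106 on day 42 (17%). The exact binomial intervals were 22.55 to 34.9, 34.7 to 40.4 and 10.4 to 25.5%, so that of day 0 overlapped both others, while those of days 7 and 42 did not overlap. As a share of keratinocytes they were 1.87%, 4.73% and 0.226%. They held 94.6%, 93.0% and 92.3% of the cluster's marker UMIs. Within 20% of the limit lay 15, 114 and 3 cells. At equal depth, the share of cluster 13 cells with a Scd1 UMI was 57.2%, 69.0% and 44.1% after thinning to 1000 UMIs (81.7%, 93.5% and 62.3% unthinned), with 3, 90 and 4 shallower cells left out. In T cells, used as the background here, the same share was 2.05%, 4.63% and 3.33% thinned and 4.11%, 11.9% and 2.48% unthinned, at median depths of 2064, 2260 and 1393 UMIs. Elovl3 was found in 15.8%, 29.8% and 11.8% of the thinned cluster 13 cells.

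Between day 7 and day 0 most lipid genes kept their level within the cluster. Of 97 compared, 6 were called higher and 0 lower, with a median log2 ratio of 0.07; over all 5581 genes 1.0% were called higher and 0.538% lower, with a median of 0.04. The 6 were Elovl4, Elovl6, Awat1, Cd36, Dbi and G0s2. Of these, Cd36 and G0s2 were compared only through day 7, where they were high. Among the 89 lipid genes that reached 20 CPM on both days, 4 were called higher. In the other keratinocyte clusters the median of the lipid genes lay between -0.211 and 0.263. G0s2, an inhibitor of lipolysis that neutrophils also express, was at 0.422 CPM on day 0 and 37.4 on day 7, against 0.917 and 38.9 in the other keratinocytes. Without the arm it was at 28.1 CPM on day 7, and the same 6 genes were called higher.

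Among the 6 were 2 elongases of fatty acids, Elovl6 and Elovl4. Elovl6, which extends palmitate to stearate, was at 57.0 CPM on day 0 (135 UMIs), 476 on day 7 (7106 UMIs) and 7.42 on day 42 (4 UMIs), with log2 ratios of 2.86 for day 7 against day 0 and -4.80 for day 42 against day 7. It was found in 24, 402 and 3 cells, and without the highest cell of each library it was at 37.3, 433 and 3.72 CPM. In the other keratinocytes it was at 35.7, 42.2 and 26 CPM, less than 2-fold apart between any 2 days. Elovl4, which makes the very long chain fatty acids of skin ceramides, was at 707, 1501 and 154 CPM. Its UMIs lay in few cells: 21 on day 0, 264 on day 7 and 5 on day 42, with 664 of the 1673 day 0 UMIs and 53 of the 83 day 42 UMIs in 1 cell each. Without the highest cell of each library it was at 428, 1425 and 56.7 CPM. The log2 ratio for day 7 was 1.08, or 1.10 without the arm. Elovl1, a broadly expressed elongase of saturated chains, was at 143, 73.0 and 35.2 CPM and Elovl3 at 650, 862 and 443, and neither was called higher. Awat1 was at 53.2, 153 and 48.2 CPM (55.6 on day 42 without the Igkc cells), in 10, 130 and 2 cells, with a log2 ratio of 1.37 on day 7. Without its highest cells it was at 26.9, 145 and 18.9 CPM. The genes highest on day 7 here were thus carried by a minority of cells in each library.

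Resistin, Retn, a secreted cysteine-rich peptide, was also highest on day 7. It was at 98.4 CPM on day 0, 312 on day 7 and 89.0 on day 42 (101 and 103 on days 0 and 42 without the Igkc cells), found in 26, 218 and 7 cells, and at no more than 0.856 CPM in the other keratinocytes. Of its UMIs 83 of 233 on day 0 and 29 of 48 on day 42 were in 1 cell each, and without the highest cell of each library it was at 64.2, 286 and 35.9 CPM. Its log2 ratio on day 7 was 1.57. In marker-rich cells it was at 201, 636 and 303 CPM.

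Some secreted antimicrobial and acute phase genes were higher on day 7. Of the 18 genes of the antimicrobial and inflammatory list, 4 reached 20 CPM on both days, and of these Lcn2 was called higher and Cxcl1, Slpi and Sod2 were not; over all genes 1.0% were called higher and 0.538% lower. A further 6, S100a8, S100a9, Cxcl2, Il1b, Saa1 and Saa3, reached 20 CPM on day 7 alone and were called higher, with and without the arm. Since these 6 were compared only through the day on which they were high, their count is a description. The median log2 ratio was 2.16 over the 10 genes compared and 0.906 over all 18. The other 8 keratinocyte clusters compared had medians of 1.45 to 3.28 over the genes that passed in them. Lcn2 (lipocalin, which withholds iron from bacteria; chr2:32384633-32388252, minus strand) was at 496 CPM on day 0, 1547 on day 7 and 462 on day 42 (508 and 532 on days 0 and 42 without the Igkc cells), against 56.3, 143 and 13.4 in the other keratinocytes. It was found in 158, 883 and 63 cells. Its log2 ratio on day 7 was 1.62, or 1.64 without the arm. Saa3, serum amyloid A, was at 8.45, 80.7 and 9.27 CPM against 0, 6.11 and 0.035, and 18 of its 20 day 0 UMIs were in 1 cell. Orm1, another acute phase gene, was at 19.9, 109 and 13 CPM against 62.6, 50.4 and 22.3.

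Neutrophil genes need to be set beside their levels in the other cells. S100a8, an abundant neutrophil protein that injured keratinocytes also make, had 0 UMIs on day 0, which allows up to 1.27 CPM, and 479 CPM on day 7. It was at least 378-fold higher on day 7. In the other keratinocytes it was at 4.52 and 613 CPM. Retnlg, a neutrophil gene, was at 0 and 107 CPM, at least 84.2-fold higher. The 5 neutrophil markers Csf3r, Cxcr2, Retnlg, S100a8 and S100a9 summed to 0.845, 1109 and 208 CPM in the cluster and to 24.95, 1619 and 186 in the other keratinocytes. On day 0, 4 of the 5 were at 0, on day 7 none was, and on day 42 Csf3r and Cxcr2 were. Without the arm the 5 summed to 925 CPM on day 7, with S100a8 at 411 CPM and Retnlg at 81.7. What part RNA released by neutrophils has in these levels was not tested.

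Within the cluster Lcn2 and Saa3 were highest where markers were lowest on day 7. Lcn2 went through 3009, 2214, 1012 and 519 CPM from the bottom to the top bin, and through 815, 1048, 346 and 197 on day 0. Saa3 was at 180 CPM in the bottom and 2.1 in the top bin on day 7, and Cxcl1, a chemokine for neutrophils, at 255.9 and 13.4. On day 42 Lcn2 was at 235, 905, 873 and 131 CPM, with 479.5 in the bottom bin once the Igkc cells were left out, so its highest values there were in the middle bins either way. In marker-rich cells Lcn2 was at 209, 595.5 and 133 CPM.

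Some keratins of stressed and mucosal epithelium were also higher on day 7, from low levels. Of 8 mucosal suprabasal genes, 0 reached 20 CPM on both days and 6 did so on day 7 alone, so the list gives no count that is free of this filter. Of those 6, Krt4, Krt13, Krt6a, Krt6b and Krt16 were past the fold, and without the arm Krt16 was no longer compared. Krt6a, a wound-induced keratin, was at 11.8, 162 and 83.4 CPM against 821, 2554 and 3948 in the other keratinocytes, and its log2 ratio on day 7 was 2.98, or 2.87 without the arm. Krt13, of the anal mucosa, was at 14.8, 117 and 76.0 CPM, or 108 on day 7 without the arm, against 1480, 1319 and 3418 in the other keratinocytes. In the cluster 21 of its 35 day 0 UMIs and 384 of its 1749 day 7 UMIs were in 1 cell each. Among genes of at least 100 CPM, the lowest log2 ratios on day 7 were those of Gsn (-2.13), Cst6 (-2.13), Cyr61 (-1.42), Atp1b1 (-1.10), Acoxl (-1.09), Atf3 (-1.0), Ccnd2 (-1.0) and Fosb (-0.98). The value of Cst6, a protease inhibitor, rests on 1 cell of day 0 that held 2340 of its 2470 UMIs; without the 10 cells with most Cst6 UMIs in each library its log2 ratio was 2.12. Left out in the same way, Gsn went to -0.10, Cyr61 to -0.84, Atp1b1 to -0.80, Acoxl to -0.50, Atf3 to -0.23, Ccnd2 to -0.74 and Fosb to -0.27, but 10 cells are a larger part of the 218 cells of day 0 than of the 1138 of day 7, which raises ratios by construction: the median of all genes went from 0.04 to 0.366. Whether these 8 genes were lower in the remaining cells can therefore not be read from this removal. The 5 fibroblast markers, Col1a1, Col1a2, Col3a1, Dcn and Pdgfra, summed to 133.5 CPM on day 0 and to 26.9 on day 7 and 1.85 on day 42.

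**Figure D5:**
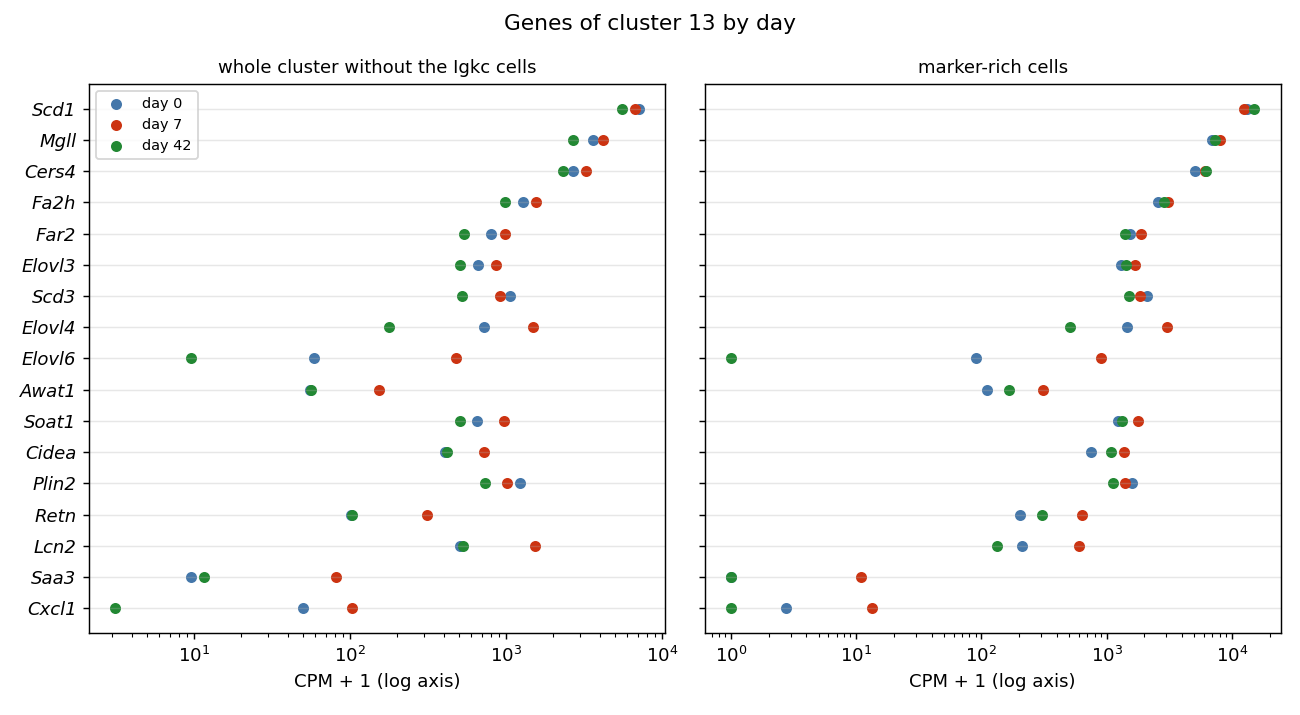
Level of 17 named genes (CPM plus 1, log axis) on the 3 days, on the left over all of cluster 13 without the Igkc cells and on the right over its marker-rich cells. Elovl6 stands out on day 7 on both sides, at 476 CPM over the cluster and 904 in marker-rich cells.

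On day 42 the median of the cluster's lipid genes lay below that of day 0, and by less when the Igkc cells were left out. Marker-rich cells held 48.4% of the cluster's UMIs on day 0, 48.8% on day 7 and 29.4% on day 42. Against day 0, 0 of 94 lipid genes were called higher and 8 lower: Elovl1, Elovl4, Elovl6, Scd2, Scd3, Hsd17b7, Insig1 and Pex11a. Of the 8, 2 were compared only through day 0, where they were high. Among the 83 that reached 20 CPM on both days, 6 were called lower. The median log2 ratio of the 94 was -0.517, against -0.109 over all 5703 genes, of which 1.09% were called higher and 1.65% lower. Without the Igkc cells 5 were lower (Elovl1, Elovl4, Elovl6, Hsd17b7 and Insig1) and the median was -0.361. In the other keratinocyte clusters the lipid median lay between -0.262 and 0.156. Cholesterol synthesis had a median of -0.678, or -0.538 without the Igkc cells. Plin2 was at 640 CPM on day 42, or 735 without the Igkc cells, against 1200 on day 0.

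Against day 7, 22 of 97 lipid genes were called lower on day 42 and 0 higher, with a median of -0.659, or 17 of 98 and -0.463 without the Igkc cells. Of the 22, 10 were compared only through day 7, where they were high. Among the 84 that reached 20 CPM on both days, 12 were called lower. Over all 5702 genes 1.16% were called higher and 2.65% lower, with a median of -0.154; without the Igkc cells 1.84% were lower and the median was -0.031. Apart from Elovl6 and Elovl4 (log2 ratio -3.21), the genes of at least 100 CPM with the lowest ratios were Cxcl1 (-3.24), Retnlg (-2.91), S100a8 (-2.74), Cst6 (-2.74), Krt1 (-2.46) and Orm1 (-2.37). Krt79 had a log2 ratio of -1.21, and all 5 gland duct genes compared were called lower. These comparisons share the day 42 and day 7 libraries with the ones above.

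Marker-rich cells alone showed little of the lipid difference between day 42 and day 0. In them the median log2 ratio of the lipid genes was -0.038, with 2 of 96 called higher and 6 lower (-0.06 and 2 and 6 of 90 without the 6 markers that chose the cells), while over all 5287 genes compared in these cells 2.535% were higher and 6.09% lower and the median was -0.004. Scd1 was at 13300, 12540 and 15110 CPM, and Cidea at 752, 1372 and 1074. The median of cholesterol synthesis was -0.12 with 0 called. Elovl4 and Elovl6 were again lowest on day 42: Elovl4 was at 1445, 3059 and 511.5 CPM, and Elovl6 was at 89.9 and 904 CPM on days 0 and 7 and had 0 UMIs on day 42. At the 18.95 CPM that 0 UMIs allows, Elovl6 was at least 4.74-fold lower than on day 0 and at least 47.7-fold lower than on day 7. Of its 103 UMIs in these cells on day 0, 48 were in 1 cell; without the highest cell of each library it was at 49.5 and 819 CPM on days 0 and 7, and the bounds were 2.61-fold and 43.25-fold. Marker-rich cells were chosen by lipid genes, so their like lipid levels follow in part from the choice, and on day 42 there were 18 of them.

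Among genes of at least 100 CPM, the lowest log2 ratios on day 42 against day 0 were those of Cst6 (-4.87), Elovl4 (-2.13), Gsn (-2.09), Gadd45g (-1.81), Ly6g6c (-1.80), Elovl1 (-1.76), Ndufa4l2 (-1.63) and Ier3 (-1.60). Here too few cells held most of the UMIs: on day 0, 10 cells held 99.1% of those of Elovl4, 96.9% of Cst6, 91.9% of Ly6g6c, 85.1% of Gsn and 75.2% of Elovl1. Without the 10 top cells per library the ratios of Cst6, Elovl4, Gsn and Ly6g6c were -1.84, -0.71, -1.30 and -0.95, although 10 cells are a larger part of the 106 cells of day 42 than of the 218 of day 0, and the median of all genes went to -0.643. The highest ratios also came mostly from few cells. Of the 8 genes of at least 100 CPM with the highest log2 ratios, Mzb1 (2.78) and Ly6c2 (4.28) were at 0 without the Igkc cells, and Cd74 (2.62), Ly6a (2.56) and Sec11c (1.49) were at 0.28, 0.60 and -0.34. Zg16 (3.94) and Tff3 (3.53), products of goblet cells, had 117 of 119 and 83 of 86 UMIs in 1 cell. S100a9 (3.78), at 0.845 CPM on day 0 and 139 on day 42, stood at 19.9 and 128 in the other keratinocytes. All 75 of its day 42 UMIs lay in at most 10 cells. Without the Igkc cells 29 genes were higher and 73 lower in place of 62 and 94. With median-of-ratios scaling in place of CPM the split was 72 higher and 70 lower.

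Immediate early and heat shock genes, which cell dissociation is known to induce, differed between days as well. On day 42, 9 of 16 were called lower than on day 0 with a median log2 ratio of -1.10, against 1.65% and -0.109 over all genes; the other keratinocyte clusters had medians of -0.557 to 1.57, and 6 of 8 lay above 0. Jun was at 820, 500 and 332 CPM and Egr1 at 627, 339 and 208. Without the Igkc cells 8 were lower and the median was -0.975, against 1.269% and -0.002. On day 7 the median was -0.582 and 1 of 16, Atf3, was called lower. In marker-rich cells the medians were -1.61 on day 42 and 0.05 on day 7. Handling of the 3 tissues and the state of the cells in them cannot be told apart here.

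Cell cycle genes of the cluster had a median log2 ratio of 0.415 on day 7 and 0.331 on day 42 against day 0 (0.464 on day 42 without the Igkc cells), against 0.04 and -0.109 over all genes, and 0 of 17 and 0 of 15 were called. In marker-rich cells, where 4 were compared, the medians were -0.004 and -0.548. Mki67 was at 63.8, 82.3 and 68.6 CPM, below the 170, 162 and 118 CPM of the other keratinocytes. Among regulators, Pparg, Srebf1, Cebpa and Cebpb differed less than 2-fold between any of the 3 days: Srebf1 was at 128, 127 and 156 CPM and Cebpb at 585, 687 and 541, or 622 on day 42 without the Igkc cells. Apoe, a lipid carrier, was at 5182, 5093 and 5056 CPM in the cluster and at 2494, 1196 and 530.2 in the other keratinocytes.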

How the data were processed

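Single cells were measured with the 10x 3' kit, which tags each RNA molecule with a UMI and reads its 3' end, so a level does not depend on gene length. The authors deposited whole-number counts of UMIs per gene and cell, a cluster number, a day and map coordinates for each cell; Cell Ranger 3.0.2 and mm10 are named in the submitters' processing notes, and how cells were filtered or clustered is not given in the sources used here. Per the file headers the deposited table also holds a size factor per cell, a ratio of the cell's total to the geometric mean of all cells' totals (5283.43 UMIs) when checked against the counts; it was not used.

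The counts of all cluster 13 cells of a library were summed and divided by their total (CPM). Ratios add 10 CPM, and genes with at least 20 CPM in either group were compared. The calculation was tested on simulated counts. The members, markers and gene lists were chosen with earlier results of these data known. Genes named besides list members are the 8 highest and 8 lowest log2 ratios among genes of at least 100 CPM, and the 15 leading genes of the cluster; mitochondrial, ribosomal protein, hemoglobin, immunoglobulin, Xist and Y-linked genes were left out of that rule. Genes of the arm and of the cells without markers, Retnlg and Lypd8 among them, were named after their values were seen. 1 listed symbol, Sts, was not found. Values of some genes covered by the rule are not reported here. For 3 of the 6 marker genes promoters at 4 RefSeq starts (GRCm38.p6) were used; the other 3 were not analysed here. Doublets were kept, and an alternative left out, per library, the top 5% by Scrublet score. The alternatives that use marker-rich cells or leave out the arm of the map were chosen after seeing the data. Python 3.11.15, numpy 2.4.6, scipy 1.17.1, pandas 2.3.3 and scanpy 1.11.5 were used.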

Additional observations from a re-analysis of the deposited data

Results flagged for a closer look

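Ier3, an immediate early gene, moved in opposite directions in the cluster and around it between day 0 and day 42, which is what set it apart. In cluster 13 it was at 217.5, 207 and 64.9 CPM on days 0, 7 and 42, a log2 ratio of -1.6 for day 42 against day 0. In the other keratinocytes pooled it was at 106.5, 166.5 and 365 CPM, a log2 ratio of 1.69. Of 8 other keratinocyte clusters, 2 moved in the direction of cluster 13. The difference was not tested, since each day is 1 library. In the marker-rich cells Ier3 was at 14.0 and 18.9 CPM on days 0 and 42, the latter from 3 UMIs.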

How the results depend on the processing

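Day 7 had the highest and day 42 the lowest share of keratinocytes under every alternative run: 5.30%, 11.5% and 1.09% with the filter on UMIs, genes and mitochondrial share, 1.22%, 3.58% and 0.216% when cells were called by markers, 1.87%, 4.73% and 0.226% for marker-rich cells, and 10.8% on day 7 without the arm. Against day 0, the counts of genes called on day 7, 56 higher and 30 lower, became 222 and 112 with the mean of CPM per cell, 87 and 70 with 1 CPM added, and 158 and 1 without the 10 cells with most UMIs of each gene, while 69 were lower when totals left out mitochondrial and ribosomal protein genes. For day 42, 62 higher and 94 lower became 94 and 161, 100 and 236, and 3 and 968 under the first 3 of these. They became 134 and 322 in marker-rich cells. Leaving out the Igkc cells gave 29 higher, and totals without mitochondrial and ribosomal protein genes gave 188 lower. Removing 10 cells per gene takes a larger part of a library with fewer cells (106 on day 42, 218 on day 0, 1138 on day 7), so it lowers that library by construction. The median log2 ratio of the antimicrobial list on day 7 was 2.43 without the highest Scrublet scores, 2.41 with the mean per cell, 2.90 with 1 CPM added, 0.906 with no minimum level and 2.44 in marker-rich cells. On day 42, where it was 0.065, it was 0.818 with the mean per cell, 0.593 without the Igkc cells and 1.25 in marker-rich cells. Marker-rich cells changed other list medians too. On day 7 basal keratinocyte genes turned to 0.344, cell cycle genes to -0.004, stress genes to 0.05, gland duct genes to -0.158 and sebocyte regulators to 0.008. On day 42 the lipid median moved to -0.038, basal genes to -0.688, cell cycle genes to -0.548, stress genes to -1.61 and lipid droplet genes to 0.093. The day 7 median of desaturases turned to 0.036 with the mean per cell, and that of interferon genes to 0.01 with no minimum level. Single genes that changed sign were Cst6 on day 7 (0.42 with the mean per cell, 2.12 without its 10 top cells) and, on day 42, Zg16 (-0.06 without its 10 top cells), Ly6a (-0.76 in marker-rich cells), Sec11c (-0.34 without the Igkc cells, -0.62 without its 10 top cells, -0.13 in marker-rich cells) and Ier3 (0.27 in marker-rich cells). The cause of these changes was not tested. Apart from these, 110 values of the main comparisons and 1039 of single genes and lists stayed within their limits, and 376 of the latter moved without changing sign. Scaling by median-of-ratios size factors shifted the median of all genes on day 42 from -0.109 to 0.005. Day 42 limits the comparisons it enters, since its 106 cells held 539345 UMIs, and a gene with 0 UMIs there could still be at 5.56 CPM. With 1 library per day no replicate could be left out. No paired analysis was possible because each day is 1 library.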

Other observations

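Genes of lysosomes and of the cell breakdown that releases sebum went both ways in cluster 13. Of 11 compared with the other keratinocytes, 3 were called higher on each day, and 2, 3 and 3 lower, while over all genes 7.78%, 8.62% and 8.55% were higher and 9.54%, 8.75% and 15.3% lower. Map1lc3a, a coat protein of autophagosomes, was at 537, 690 and 488 CPM against 179, 99.5 and 170, and Psap, the precursor of lysosomal sphingolipid activators, was at 528, 404 and 415 against 235, 165 and 168. Gpnmb, a lysosomal membrane glycoprotein, was at 10.6, 18.1 and 5.56 CPM against 202, 112 and 128. Between the bins of cells with the highest and the lowest marker share the list had a median log2 ratio of 0.67 on day 0, 0.55 on day 7 and 1.11 on day 42, against -0.10, -0.17 and 0.39 over all genes. Without the Igkc cells the day 42 values were 0.56 for the list and -0.28 over all genes.

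The 15 interferon response genes summed to 112 CPM on day 0, 84.0 on day 7 and 195 on day 42, against 241, 90.7 and 207 in the other keratinocytes. Without the Igkc cells the day 42 sum was 120. On day 7, 2 of the 15 reached 20 CPM and were compared with day 0, and 0 were called.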
